A study of Mus musculus with 4 samples.

Results

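The genes described here carry iron into and out of cells, store it, and build or break down heme. They were chosen by name as 10 gene symbols (Trf, Tfrc, Slc11a2, Fth1, Ftl1, Slc40a1, Cp, Alas1, Fech and Hmox1), and all 10 were found among the 12165 genes of the RNA-seq table. The list was drawn up with the difference between genotypes in these libraries already known, so that difference is given for the 10 genes as a description, without a test. The tissue was brown adipose tissue, the heat-producing form of fat, of 8-week-old mice, with 2 libraries from the wild type (WT) and 2 from mice without Ebf2 (Ebf2 KO). Both genotypes were of mixed strain, ate chow and lived at room temperature. EBF2 is a transcription factor of brown fat cells and their precursors. The labels give neither the Ebf2 allele nor whether each library came from 1 mouse or from several, so the spread between the 2 libraries of a genotype may be partly technical.

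Cells take up iron bound to transferrin (Trf) through the transferrin receptor (Tfrc), and the transporter Slc11a2, known as DMT1, moves the released iron out of the endosome. Iron that is not used at once is held in ferritin, a shell of heavy (Fth1) and light (Ftl1) chains, or leaves the cell through ferroportin (Slc40a1) with the help of oxidases such as ceruloplasmin (Cp). In mitochondria iron goes into iron-sulfur clusters and heme, whose synthesis is begun by Alas1, is closed by Fech, and is opposed by the heme oxygenase Hmox1. Brown fat is rich in mitochondria, whose respiratory chain needs both heme and iron-sulfur clusters. When cells lack iron, the iron regulatory proteins bind hairpins called iron-responsive elements. A hairpin before the coding sequence, as in the ferritins, then blocks translation, and those after it, as in Tfrc, protect the mRNA from decay.

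The iron-responsive elements are shown first because they are the sequence feature that links storage to uptake. GENCODE M21 transcripts (build GRCm38) of Tfrc, Fth1, Ftl1, Alas1 and Cp, the 5 genes with an entry in RefSeq's promoter table, were searched on the transcript strand for an unpaired C followed by a stem of 5 base pairs (G-T pairs allowed) that encloses the 6-base loop CAGTGN, whose last base could not be G. The pattern was found in 3 of these genes, and in 222 of 21901 protein-coding genes (1.01%). The other members, Trf, Slc11a2, Slc40a1, Fech and Hmox1, were not searched, so elements in them would not be seen here. The sequences run 5′ to 3′ on the transcript strand with the loop in capitals.
Fth1, 5′ UTR, chr19:9982733-9982759, + strand: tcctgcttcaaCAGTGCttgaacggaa
Ftl1, 5′ UTR, chr7:45459780-45459806, - strand: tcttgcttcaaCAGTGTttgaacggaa
Tfrc, 3′ UTR, chr16:32631220-32631246, + strand: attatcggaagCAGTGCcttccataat
Tfrc, 3′ UTR, chr16:32631599-32631625, + strand: attatcgggagCAGTGTcttccataat
Tfrc, 3′ UTR, chr16:32631664-32631690, + strand: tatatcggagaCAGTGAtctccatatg
Tfrc, 3′ UTR, chr16:32631711-32631737, + strand: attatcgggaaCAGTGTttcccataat
The elements of the 2 ferritin genes shared 25 of 27 bases. The 4 Tfrc elements that matched the pattern lay within 518 bases and shared between 17 and 25 of 27 bases with each other. A ferritin element shared between 9 and 13 with a Tfrc element. An element that departs from the pattern would have been missed, so the list may be incomplete. The RNA levels below bear on mRNA amount only, since translation was not measured.

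The level of a gene is its RPKM, the read count scaled to gene length and to the library's total. Library totals, worked out from the RPKM values, lay between 162782640 and 199678916 reads. Ebf2 itself had 2.97 and 2.63 RPKM in WT against 0.391 and 0.352 in Ebf2 KO. The labelled tissue showed in WT, where the brown fat markers summed to 8091 and 9320 RPKM, but far less in Ebf2 KO, where they summed to 141 and 110 RPKM (7 of 7 lower, limma, beside 3.54% of all genes). The general fat cell markers summed to 19161 and 14048 RPKM in WT and to 29927 and 27250 RPKM in Ebf2 KO (4 of 7 higher, beside 24.4% of all genes, and 0 lower, or 1 at an unadjusted p under 0.05). After centring 0 of the 7 were higher and 1 lower by limma, and 2 were higher and 1 lower both at an unadjusted p under 0.05 and by the authors' deposited FDR. Most genes had higher RPKM in Ebf2 KO. The median difference over all genes was 0.45 on the log2(RPKM + 1) scale, and for that reason values after centring each library on its median are given as well. Centring takes 0.52 off every log2 difference. Ebf2 KO replicate 2 stood apart in Xist, the RNA of the inactive X chromosome in female cells, at 0.0353 RPKM against 5.05 to 6.19 in the other libraries, and the labels give no sex. In bulk tissue, fewer cells of a type and less RNA per cell cannot be told apart.

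None of the 10 genes overlapped between genotypes in RPKM. The 2 Ebf2 KO levels exceeded the 2 WT levels for 6 genes (Trf, Fth1, Ftl1, Slc40a1, Fech and Cp), as they did for 65.4% of all genes, and lay below them for 4 (Tfrc, Slc11a2, Alas1 and Hmox1), as for 9.3% of all genes. After centring, 3 of the 6 (Trf, Ftl1 and Cp) remained above, beside 26.2% of all genes, and all 4 remained below, beside 35.5%. In the fit over all genes (limma on log2(RPKM + 1), Benjamini-Hochberg adjusted p under 0.05), 3 members passed as higher, beside 24.4% of all genes, and 3 as lower, beside 3.54%, so 6 in either direction, beside 28%. After centring these counts were 2, beside 8.42%, and 4, beside 10.3%, again 6 in either direction, beside 18.7%. The list was chosen on this contrast, so nothing is read from these counts.

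**Figure D1:**
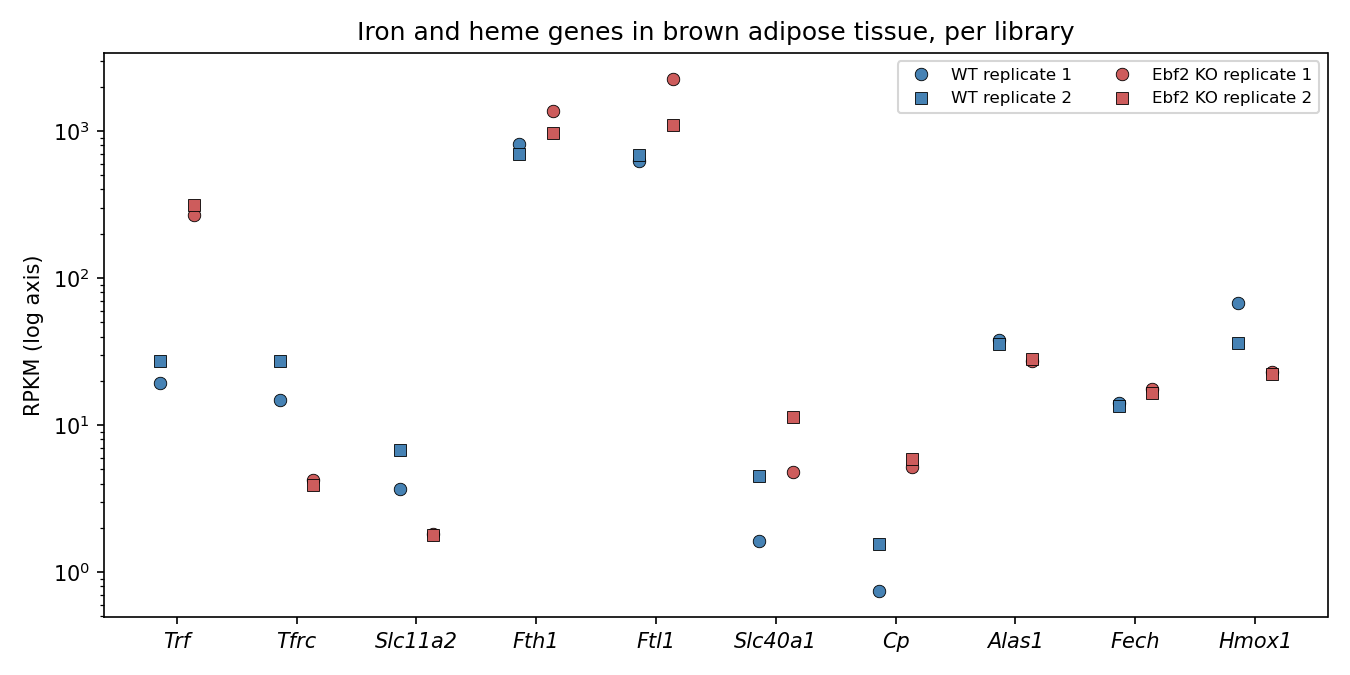
RPKM of the 10 iron and heme genes in each library, on a log axis. Blue marks are the WT libraries, red marks the Ebf2 KO libraries, circles replicate 1 and squares replicate 2. Trf and Tfrc share a level of 14.8 to 27.4 RPKM in WT and lie at 268 to 316 and 3.92 to 4.24 RPKM in Ebf2 KO.

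Transferrin and its receptor stood at like levels in WT and far apart in Ebf2 KO. Trf, the plasma carrier of ferric iron, had 19.3 and 27.4 RPKM in WT (8981 and 11266 reads) but 268 and 316 RPKM in Ebf2 KO (110485 and 119970 reads). It went from rank 1770 and 1413 among the 12165 genes in WT to rank 246 and 217 in Ebf2 KO. The mean of 23.3 ± 5.71 RPKM (SD, n = 2) in WT was 12.5 times lower than that of 292 ± 33.7 RPKM (SD, n = 2) in Ebf2 KO. The fitted log2 difference of Trf was 3.61 (SE 0.236) on RPKM and 3.08 (SE 0.302) after centring. Trf differed by 1.42-fold between the WT libraries and by 1.18-fold between the Ebf2 KO libraries, far less than between genotypes.

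Tfrc, the receptor that brings transferrin into the cell, had 14.8 and 27.2 RPKM in WT (14507 and 23592 reads) but 4.24 and 3.92 RPKM in Ebf2 KO (3676 and 3134 reads). Its mean was 5.15 times higher in WT (21.0 ± 8.77 RPKM, SD, n = 2) than in Ebf2 KO (4.08 ± 0.225 RPKM, SD, n = 2). The WT libraries differed by 1.84-fold from each other, and the log2 difference of -2.06 (SE 0.302) became -2.47 without WT replicate 1 and -1.64 without WT replicate 2. Both Ebf2 KO levels of Tfrc lay below both WT levels. The centred log2 difference was -2.58 (SE 0.249). In rank Tfrc went from 2133 and 1420 in WT to 6225 and 7071 in Ebf2 KO.

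Slc11a2, the proton-coupled iron transporter that empties the endosome, lay on the same side as Tfrc. Its level was 3.66 and 6.74 RPKM in WT and 1.81 and 1.78 RPKM in Ebf2 KO, a mean 2.90 times higher in WT. The log2 difference was -1.10 (SE 0.306) on RPKM, between -1.47 without WT replicate 1 and -0.74 without WT replicate 2, and -1.63 (SE 0.210) after centring. The lower WT library was the same for Tfrc and Slc11a2, WT replicate 1, and the Ebf2 KO libraries agreed within 1.08-fold for Tfrc and 1.01-fold for Slc11a2.

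A ratio of 2 genes within a library does not depend on how libraries are scaled. Trf over Tfrc was 1.30 and 1.01 in WT but 63.3 and 80.7 in Ebf2 KO, a mean 62.3 times higher. Fth1 over Tfrc, storage against uptake, was 55.2 and 25.7 in WT and 324 and 247 in Ebf2 KO, a mean 7.05 times higher. These ratios rest on genes chosen for their difference and are descriptions.

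**Figure D2:**
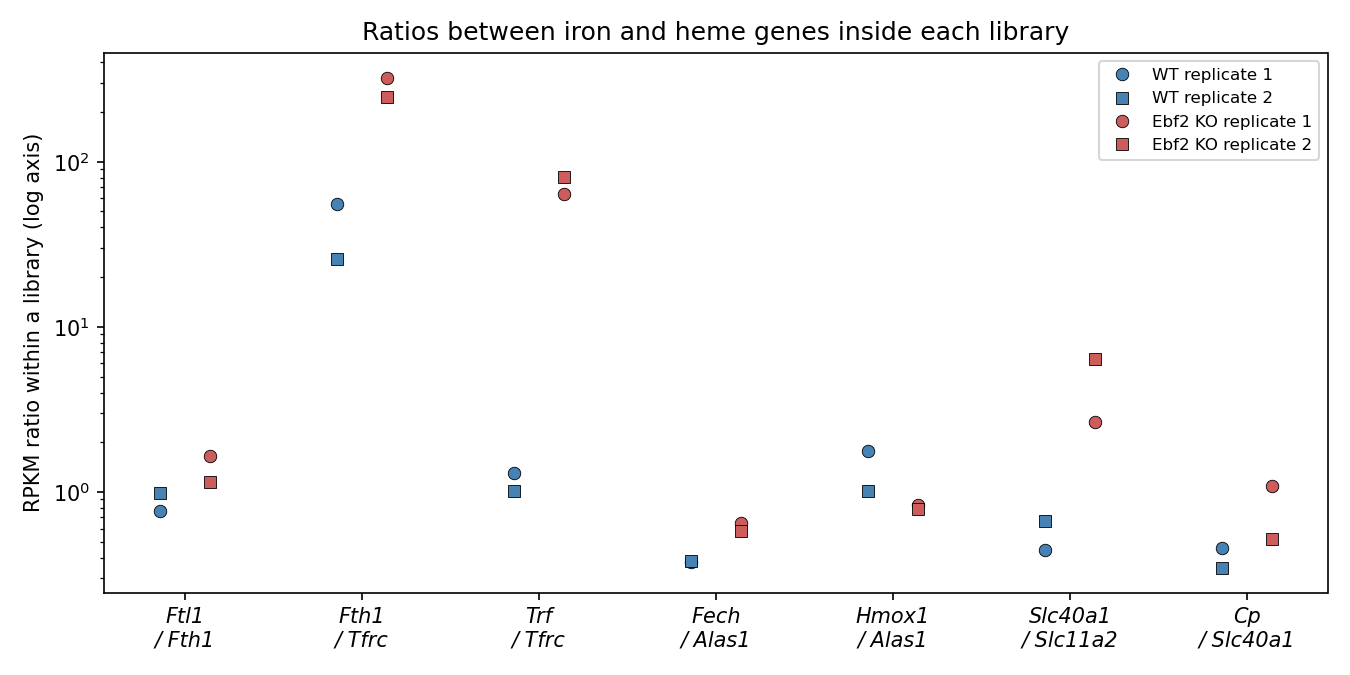
Ratio of the RPKM of 2 genes within each library, on a log axis, with WT in blue, Ebf2 KO in red, replicate 1 as circles and replicate 2 as squares. The ratio of Trf over Tfrc is near 1 in WT (1.30 and 1.01) and 63.3 and 80.7 in Ebf2 KO. The ratios rest on genes chosen for their difference and are descriptions.

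The ferritin chains were the most abundant of the 10 genes in every library. Fth1, whose heavy chain oxidises iron as it enters the shell, was at 815 and 698 RPKM in WT and at 1371 and 966 RPKM in Ebf2 KO. The mean of 757 ± 82.8 RPKM in WT stood against 1169 ± 287 in Ebf2 KO (SD, n = 2 each), a ratio of 1.54. Its log2 difference of 0.61 (SE 0.303) was close to the median of all genes, and after centring it was 0.084 (SE 0.507), smaller than its error. In rank Fth1 stayed between 38 and 74 of all genes in the 4 libraries.

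Ftl1, whose light chain helps the iron core to form, was at 629 and 688 RPKM in WT and at 2268 and 1105 RPKM in Ebf2 KO. The mean in Ebf2 KO was 2.56 times that in WT. The Ebf2 KO libraries differed by 2.05-fold, and the log2 difference of 1.27 (SE 0.383) became 0.75 without Ebf2 KO replicate 1 and 1.78 without Ebf2 KO replicate 2. After centring it was 0.74 (SE 0.549). Ftl1 lay below Fth1 in both WT libraries and above it in both Ebf2 KO libraries, with a light over heavy chain ratio of 0.771 and 0.985 in WT and 1.65 and 1.14 in Ebf2 KO. Ferritin genes have processed pseudogenes, and the sources used here do not say how reads that match several places were counted, so both levels are uncertain to that extent.

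The library with the highest ferritin levels, Ebf2 KO replicate 1, was also the highest in red cell RNA. Of 13 erythroid markers 8 were measured, and their summed level was 2998 and 4379 RPKM in WT and 12703 and 4542 RPKM in Ebf2 KO (some hemoglobin genes share the same reads). Alas2, the red cell form of the enzyme that starts heme synthesis, was at 11.9 and 24.1 RPKM in WT and at 43.5 and 16.1 RPKM in Ebf2 KO. None of the 8 markers passed the threshold as higher or lower on RPKM (limma, beside 3.54% lower and 24.4% higher of all genes), and 1 passed as lower after centring. At an unadjusted p under 0.05 they were 2 higher and 0 lower on RPKM, and the authors' deposited FDR called 0 of them. The part of red cell RNA in the ferritin levels was not tested.

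The exporter and its oxidase had the lowest mean levels of the 10 genes in WT. Slc40a1, the only known iron exporter of mammalian cells, was at 1.62 and 4.51 RPKM in WT and at 4.78 and 11.4 RPKM in Ebf2 KO. The lower Ebf2 KO value lay just above the higher WT value, and the libraries of a genotype differed by 2.78-fold in WT and 2.38-fold in Ebf2 KO, about as much as the 2.64-fold between the means. The log2 difference of Slc40a1 was 1.15 (SE 0.459) on RPKM, between 0.60 without Ebf2 KO replicate 2 and 1.70 without Ebf2 KO replicate 1, and 0.63 (SE 0.321) after centring, where the genotypes overlapped.

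Cp, a copper-containing oxidase that converts exported iron to the form transferrin binds, had 0.742 and 1.56 RPKM in WT (928 and 1724 reads) but 5.17 and 5.92 RPKM in Ebf2 KO (5715 and 6039 reads). The mean was 4.82 times higher in Ebf2 KO. The WT libraries differed by 2.10-fold and the Ebf2 KO libraries by 1.15-fold, and both Ebf2 KO values of Cp lay above both WT values. Its log2 difference was 1.63 (SE 0.282) on RPKM, a scale that understates the change of genes near 1 RPKM, and 1.11 (SE 0.189) after centring. Slc40a1 over Slc11a2, export against endosomal import, was 0.443 and 0.669 in WT and 2.64 and 6.38 in Ebf2 KO.

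Markers of other cell types differed between the genotypes in some lists but not in all. None of the measured markers was at 0 in a library. The 9 measured of 10 macrophage markers summed to 44.3 and 94.8 RPKM in WT and to 244 and 222 RPKM in Ebf2 KO, and 6 of them were higher by limma on RPKM (5 after centring). The 6 fibroblast markers summed to 212 and 463 RPKM in WT and to 1150 and 2079 RPKM in Ebf2 KO, and all 6 were higher (5 after centring). These counts stand beside 24.4% of all genes on RPKM and 8.42% after centring, as do those of the marker lists that follow. Of 10 hepatocyte markers, 4 were measured and summed to 2.23 and 0.582 RPKM in WT and to 6.10 and 9.38 RPKM in Ebf2 KO (3 higher, 1 after centring). Albumin (Alb), made by hepatocytes along with Trf and Cp, had 0.249 to 0.343 RPKM in WT but 2.35 to 4.0 in Ebf2 KO. The lower Ebf2 KO value of Alb lay above both WT values. Markers of Schwann cells and oligodendrocytes, the latter a source of Trf in the brain, summed to 27.4 and 63.3 RPKM in WT and to 71.9 and 176 RPKM in Ebf2 KO (3 of 5 higher and 1 lower, under both scalings). The summed level of the 5 endothelial markers overlapped between the genotypes, with sums of 69.5 and 115 RPKM in WT and of 102 and 110 RPKM in Ebf2 KO. By limma 0 of 5 passed on RPKM or after centring (1 higher and 1 lower, respectively, at an unadjusted p under 0.05, and 0 by the authors' deposited FDR). The part of these cells in the levels of the iron genes was not tested.

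In heme synthesis the first and the last enzyme differed in direction on RPKM but not after centring. Alas1, the rate-limiting enzyme outside red cells, was at 37.8 and 35.6 RPKM in WT and at 27.3 and 28.3 RPKM in Ebf2 KO. The WT mean was 1.32 times higher, and the libraries of a genotype agreed within 1.06-fold. Its log2 difference was -0.39 (SE 0.191) on RPKM and -0.91 (SE 0.276) after centring. Fech, which puts iron into the ring, was at 14.2 and 13.5 RPKM in WT and at 17.7 and 16.4 RPKM in Ebf2 KO. The log2 difference of Fech was 0.28 (SE 0.201) on RPKM but -0.24 (SE 0.256) after centring, so its direction depended on the scaling. Fech over Alas1, the last step against the first, was 0.375 and 0.380 in WT and 0.649 and 0.582 in Ebf2 KO, a mean 1.63 times higher.

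Between these steps, Alad and Cpox rose on RPKM, and neither of them passed after centring. Alad, which forms porphobilinogen, went up 2.13-fold, with 22.1 and 17.1 RPKM in WT and 51.0 and 32.4 RPKM in Ebf2 KO (limma adjusted p = 0.0293). That call was lost after centring (adjusted p = 0.350). Leaving out a library leaves 1 in its genotype, so a gene's own spread then comes from the other genotype alone. For such fits, here and below, the log2 difference is given without a p-value. That of Alad was 1.03 with all 4 libraries and 0.71 without Ebf2 KO replicate 1. Cpox, which acts late in the chain, rose to 1.34 ± 0.208 RPKM from 0.486 ± 0.151 in WT (± SD, n = 2 libraries each, with a limma adjusted p of 0.0430), a call lost after centring (0.617). Its log2 difference of 0.66 lay between 0.55 without WT replicate 1 and 0.76 without WT replicate 2. The Cpox call was also lost with a pseudocount of 0.1 (0.0545) and with no variance trend (0.0612), and Cpox had an FDR of 0.234 in the authors' deposited table. Uros, Urod and Ppox did not pass the threshold, with log2 differences between 0.080 and 0.36 on RPKM and between -0.44 and -0.16 after centring. Urod, which trims the side chains of the ring, was at 38.9 and 40.3 RPKM in WT and at 39.6 and 44.2 RPKM in Ebf2 KO, a pair of ranges that overlap.

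**Figure D3:**
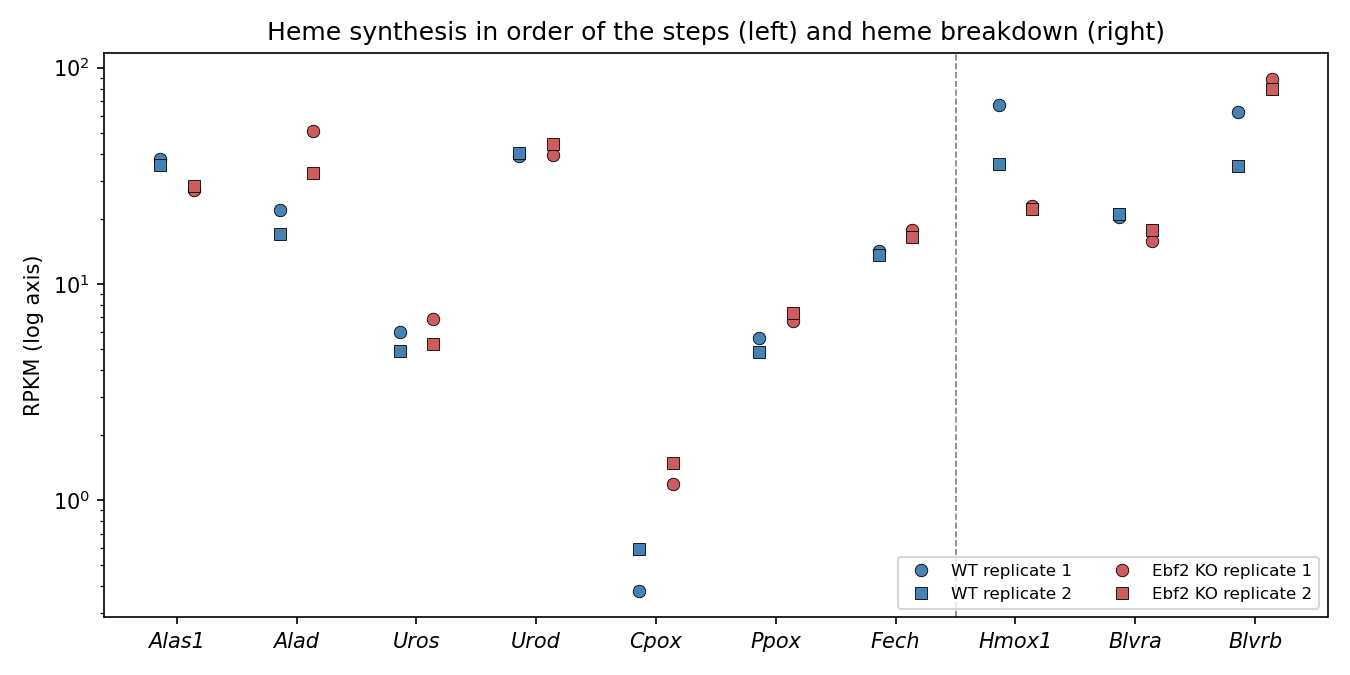
RPKM of heme synthesis enzymes in the order of their steps (left of the dashed line) and of the heme breakdown enzymes (right), on a log axis, with WT in blue and Ebf2 KO in red. Alas1 and Hmox1 are lower in both Ebf2 KO libraries, whereas Fech goes from 13.5 and 14.2 RPKM to 16.4 and 17.7 RPKM.

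Hmox1, the inducible oxygenase that opens the heme ring and frees its iron, was at 67.2 and 36.0 RPKM in WT and at 22.8 and 22.2 RPKM in Ebf2 KO. The WT libraries differed by 1.87-fold and the Ebf2 KO libraries by 1.03-fold, and both WT values lay above both Ebf2 KO values. The mean was 2.29 times higher in WT, and the log2 difference of -1.09 (SE 0.295) became -0.65 with WT replicate 1 left out and -1.54 with WT replicate 2 left out. The centred difference of Hmox1 was -1.62 (SE 0.379). Its constitutive partner Hmox2 was at 23.5 and 31.6 RPKM in WT and at 25.9 and 30.0 RPKM in Ebf2 KO, a log2 difference of 0.029 (limma adjusted p = 0.925). After centring the log2 difference of Hmox2 was -0.50 (SE 0.252, limma adjusted p = 0.201), and the authors' deposited value was -0.61 (FDR 0.131). Biliverdin reductase Blvra, which acts after the oxygenases, did not pass on RPKM (20.4 and 21.0 against 15.8 and 17.7 RPKM, adjusted p = 0.269) but fell after centring (0.0430). Hmox1 over Alas1, breakdown against synthesis, was 1.78 and 1.01 in WT and 0.838 and 0.786 in Ebf2 KO.

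The order of the 10 genes by RPKM, which is per length, differed between the genotypes. In WT it ran Fth1, Ftl1, Hmox1, Alas1, Trf, Tfrc, Fech, Slc11a2, Slc40a1 and Cp, and the ranges of the libraries overlapped between Hmox1 and Alas1, Trf and Tfrc, and Slc11a2 and Slc40a1. In Ebf2 KO it ran Ftl1, Fth1, Trf, Alas1, Hmox1, Fech, Slc40a1, Cp, Tfrc and Slc11a2, with overlap between Ftl1 and Fth1 and between Slc40a1 and Cp. Tfrc and Slc11a2, the uptake genes besides transferrin, took the last places in Ebf2 KO.

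In the authors' deposited table, which scales the libraries in another way, the log2 fold change was 3.02 for Trf, 1.67 for Cp, -2.96 for Tfrc, -2.13 for Slc11a2, -1.89 for Hmox1 and -1.06 for Alas1. By the FDR in the authors' deposited table, higher members numbered 2, beside 10.9% of all genes, and lower ones 4, beside 10.5%. In the authors' deposited table Slc40a1 was at 0.79, Ftl1 at 0.75, Fth1 at -0.015 and Fech at -0.35. The direction of Fech and of Fth1 there was opposite to that on RPKM, and that of the other 8 genes was the same.

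**Figure D4:**
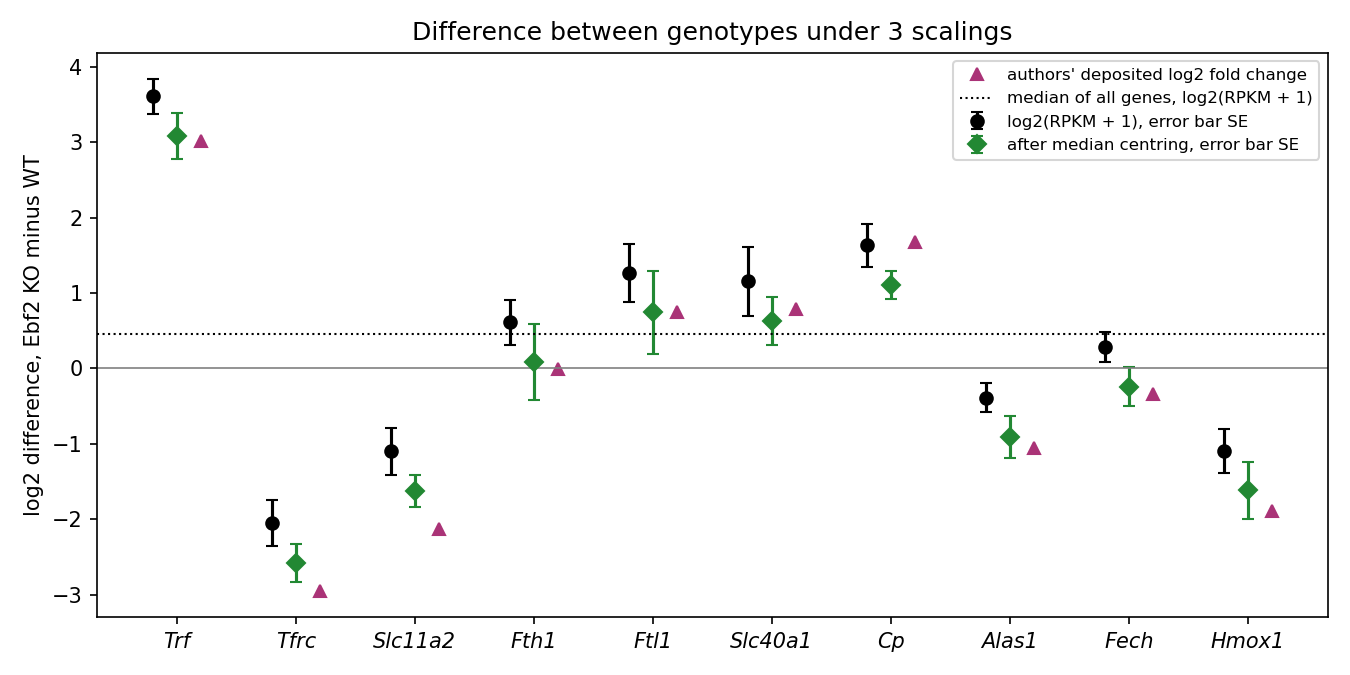
Log2 difference of Ebf2 KO minus WT for the 10 genes on log2(RPKM + 1) (black circles), after median centring (green diamonds) and as the authors' deposited log2 fold change (purple triangles). Error bars are SE of the limma fit, and the dotted line is the median of all genes on log2(RPKM + 1), 0.45. Trf, Cp, Ftl1 and Slc40a1 lie above 0 and Tfrc, Slc11a2, Hmox1 and Alas1 below 0 under each scaling, while Fech and Fth1 cross 0.

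The nearest profiles over the 4 libraries were sought for the members at either end, leaving out every gene whose mean was under 5 RPKM. The measure was the Euclidean distance of log2(RPKM + 1) after taking off each gene's mean. For Trf these were Ifi27l2a, Lep and Dram1, at distances of 0.491, 0.501 and 0.611. These profiles describe 4 libraries only. Dram1, a lysosomal membrane protein, went from 3.06 and 4.44 to 38.6 and 36.6 RPKM. For Tfrc they were Cenpo, Plin2 and Acss1, at distances of 0.187, 0.291 and 0.329. Acss1, a mitochondrial acetyl-CoA synthetase, went from 14.1 and 18.9 to 3.18 and 2.70 RPKM.

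Further genes of iron and heme handling were taken from 5 lists, which were written by role with earlier results of these data known. Of 91 listed genes 77 were measured, 21 of them (27.3%) rose and 5 (6.49%) fell on RPKM, beside 24.4% and 3.54% of all genes. After centring, 11 (14.3%) rose and 15 (19.5%) fell, beside 8.42% and 10.3%, and the count of each list is to be read against the same shares. The median log2 difference of the 77 was 0.23 on RPKM and -0.29 after centring, against 0.45 and -0.070 for all genes. The counts of the 77 changed under both scalings as each library was left out, in fits that leave 1 library in a genotype.

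Of 11 measured genes of iron uptake and systemic control, 6 rose and 0 fell on RPKM by limma, and 4 and 2 did after centring. At an unadjusted p under 0.05 on RPKM 7 were higher and 1 lower. The limma counts changed as single libraries were left out. Heph, a membrane-bound relative of ceruloplasmin, was at 1.68 and 1.75 RPKM in WT and at 12.3 and 19.2 RPKM in Ebf2 KO (log2 difference 2.59, SE 0.277, limma adjusted p = 0.00243). Steap3, which reduces iron in the endosome for Slc11a2, rose 3.46-fold to 10.7 ± 0.185 RPKM, from 3.10 ± 1.09 in WT (SD, n = 2 each; adjusted p = 0.00943). Hfe2, hemojuvelin, a coreceptor best known from skeletal muscle and liver, rose from 3.37 ± 2.86 to 17.1 ± 2.07 RPKM (adjusted p = 0.0135). All 3 also passed after centring. The 8 skeletal muscle markers summed to 807 and 2061 RPKM in WT and to 7748 and 8112 RPKM in Ebf2 KO, and their part in the level of Hfe2 was not tested. Steap4, a reductase of fat and inflamed tissue, rose 2.13-fold on RPKM (adjusted p = 0.0202) but did not pass after centring (0.227). Its log2 difference of 1.01 became 0.81 without Ebf2 KO replicate 2. After centring the fallers were Slc39a14, a transporter of iron not bound to transferrin, at 1.68 ± 0.214 and 0.836 ± 0.151 RPKM, and Bmp6, a ligand that controls hepcidin, at 2.67 ± 1.37 and 1.17 ± 0.218 RPKM (SD, n = 2 each), both named after their values were seen.

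Of 8 measured genes of iron storage and cytosolic handling, 4 rose and 0 fell on RPKM by limma, and 2 and 0 did after centring. At an unadjusted p under 0.05 0 were lower on either scale, as by the authors' deposited FDR. Scara5, a scavenger receptor that takes up ferritin, rose 10.1-fold from 0.642 ± 0.156 to 6.48 ± 1.37 RPKM (± SD, n = 2 libraries each, with a limma adjusted p of 0.00320, and 0.000417 after centring), beside the fibroblast markers given above. Fbxl5, the ubiquitin ligase subunit that clears iron regulatory protein 2 when iron is plentiful, rose 3.94-fold to 14.8 ± 1.27 RPKM (adjusted p = 0.00425). Ireb2, its target, had a mean of 3.09 ± 0.365 RPKM in WT against 5.73 ± 1.70 in Ebf2 KO (SD, n = 2 each) and did not pass (adjusted p = 0.0907). Aco1, the cytosolic aconitase that becomes iron regulatory protein 1 when it loses its cluster, rose 2.20-fold on RPKM (adjusted p = 0.0141) but did not pass after centring (0.217). The same held for Pcbp2, an iron chaperone, at 75.3 ± 1.13 and 132 ± 3.30 RPKM (0.0238, and 0.589 after centring). Its log2 difference of 0.81 became 0.78 without Ebf2 KO replicate 1 and 0.83 without Ebf2 KO replicate 2.

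Of 30 genes of mitochondrial iron and iron-sulfur cluster assembly, all measured, 2 rose and 3 fell on RPKM, and 0 rose and 8 fell after centring. At an unadjusted p under 0.05 1 was higher after centring, and the authors' deposited FDR called 0 higher and 12 lower. The median log2 difference was 0.013 on RPKM and -0.51 after centring. The limma numbers that rose on RPKM and that fell changed as single libraries were left out, in fits that leave 1 library in a genotype. Ciapin1, which carries electrons for cluster assembly in the cytosol, fell 2.95-fold from 14.7 and 18.8 RPKM to 6.45 and 4.92 RPKM (mean in Ebf2 KO 5.69 ± 1.09, SD, n = 2 each; limma adjusted p = 0.00924). Hspa9, the mitochondrial chaperone that helps to hand on new clusters, fell 2.44-fold from 168 ± 11.0 to 68.6 ± 10.6 RPKM (adjusted p = 0.00812). Its log2 difference of -1.28 became -1.13 without Ebf2 KO replicate 2. Cisd1, an iron-sulfur protein of the outer membrane, was at 143 and 117 RPKM in WT and at 86.8 and 70.6 RPKM in Ebf2 KO (adjusted p = 0.0468). The Cisd1 call was lost with a pseudocount of 0.1 (0.0508) and with no variance trend (0.0584). The log2 difference of Cisd1, -0.72, lay between -0.86 without Ebf2 KO replicate 1 and -0.57 without Ebf2 KO replicate 2. The scaffold Iscu, on which clusters form, was at 116 and 104 RPKM in WT and at 117 and 106 RPKM in Ebf2 KO, where the ranges overlapped. Slc25a28, a mitochondrial iron importer (mitoferrin 2), and Mms19, which loads clusters onto nuclear proteins, rose 1.70-fold and 2.54-fold on RPKM, but neither passed after centring (0.607 and 0.0611). Their log2 differences of 0.74 and 1.13 became 0.81 and 0.98 without Ebf2 KO replicate 2. That of Slc25a28 was 0.60 without WT replicate 1. The brown fat markers, whose cells are rich in mitochondria, differed between the genotypes as given above, and their part in these levels was not tested.

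Of 16 further genes of heme synthesis and its transport, 4 (25%) rose and 2 fell on RPKM by limma, beside 24.4% and 3.54% of all genes, so the share that rose was that of all genes. After centring 1 rose and 3 fell, beside 8.42% and 10.3%. These counts also changed as single libraries were left out. Pgrmc1, a heme-binding partner of ferrochelatase, rose 2.93-fold from 28.1 ± 1.79 to 82.3 ± 0.979 RPKM (± SD, n = 2 libraries each, with a limma adjusted p of 0.00370, and 0.0424 after centring). Tspo, an outer membrane protein that binds porphyrins, rose 1.84-fold on RPKM (adjusted p = 0.0361) and missed the threshold on the centred scale (0.604). Its log2 difference of 0.88 lay between 0.73 without WT replicate 2 and 1.03 without WT replicate 1. Tmem14c, which moves a heme precursor across the inner membrane, fell 1.95-fold from 193 ± 2.91 to 98.8 ± 5.16 RPKM (adjusted p = 0.0161, and 0.0139 after centring). Cox10 begins the conversion of heme to the heme a of cytochrome oxidase. It fell 2.23-fold from 11.7 ± 0.349 to 5.25 ± 0.978 RPKM (adjusted p = 0.0198). Cox15, the next enzyme, was at 2.67 and 2.61 RPKM in WT and 3.17 and 3.08 in Ebf2 KO. The log2 difference of Cox15 was 0.18 on RPKM but -0.34 after centring, so its direction depended on the scaling. It passed on neither scale (limma adjusted p = 0.567 and 0.287). The log2 differences of Tmem14c and Cox10, -0.96 and -1.03 on RPKM, became -0.91 and -0.87 without Ebf2 KO replicate 2.

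Of 12 measured genes of heme breakdown, export and scavenging, 5 rose and 0 fell on RPKM by limma, and 4 and 2 did after centring. At an unadjusted p under 0.05 on RPKM 7 were higher and 1 lower, and the authors' deposited FDR called 4 higher and 3 lower. Leaving out single libraries changed the limma counts as well. Slc48a1, which carries heme out of the lysosome, rose 3.71-fold from 14.6 ± 0.610 to 54.2 ± 3.25 RPKM (± SD, n = 2 libraries each, with a limma adjusted p of 0.00241). Haptoglobin (Hp), which binds free hemoglobin and is secreted by fat cells and liver, was at 107 and 134 RPKM in WT and at 426 and 687 RPKM in Ebf2 KO, a 4.61-fold higher mean (adjusted p = 0.00440). The receptors for hemoglobin with haptoglobin and for heme with hemopexin, Cd163 and Lrp1, rose 3.75-fold and 3.34-fold (adjusted p = 0.0204 and 0.0168). Hemopexin itself (Hpx) was low, at 0.721 and 0.631 RPKM in WT and at 0.145 and 0.349 RPKM in Ebf2 KO. Hpx did not pass on RPKM (limma adjusted p = 0.0836) but fell after centring (0.00521), and was named after its values were seen. The log2 differences of Cd163 and Lrp1, 1.33 and 1.49, became 1.07 and 1.22 without Ebf2 KO replicate 2. Cd163, a macrophage receptor, moved beside the macrophage markers given above. Bach1, the heme-sensing repressor of Hmox1, was the fifth riser, at 0.975 ± 0.149 and 2.41 ± 0.154 RPKM, named after its values were seen, and did not pass after centring (adjusted p = 0.341). Nfe2l2, an activator of Hmox1, had a mean of 8.50 ± 0.615 RPKM in WT and, with 3.85 and 9.61 RPKM, lay on either side of it in Ebf2 KO. Its log2 difference was -0.40 on RPKM (SE 0.366, limma adjusted p = 0.399). Centring brought Nfe2l2 to -0.93 (SE 0.295), which just missed the limma threshold (0.0525). The authors' own fold change for Nfe2l2 was -1.02 on the log2 scale, and their FDR of 0.0265 called it lower.

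**Figure D5:**
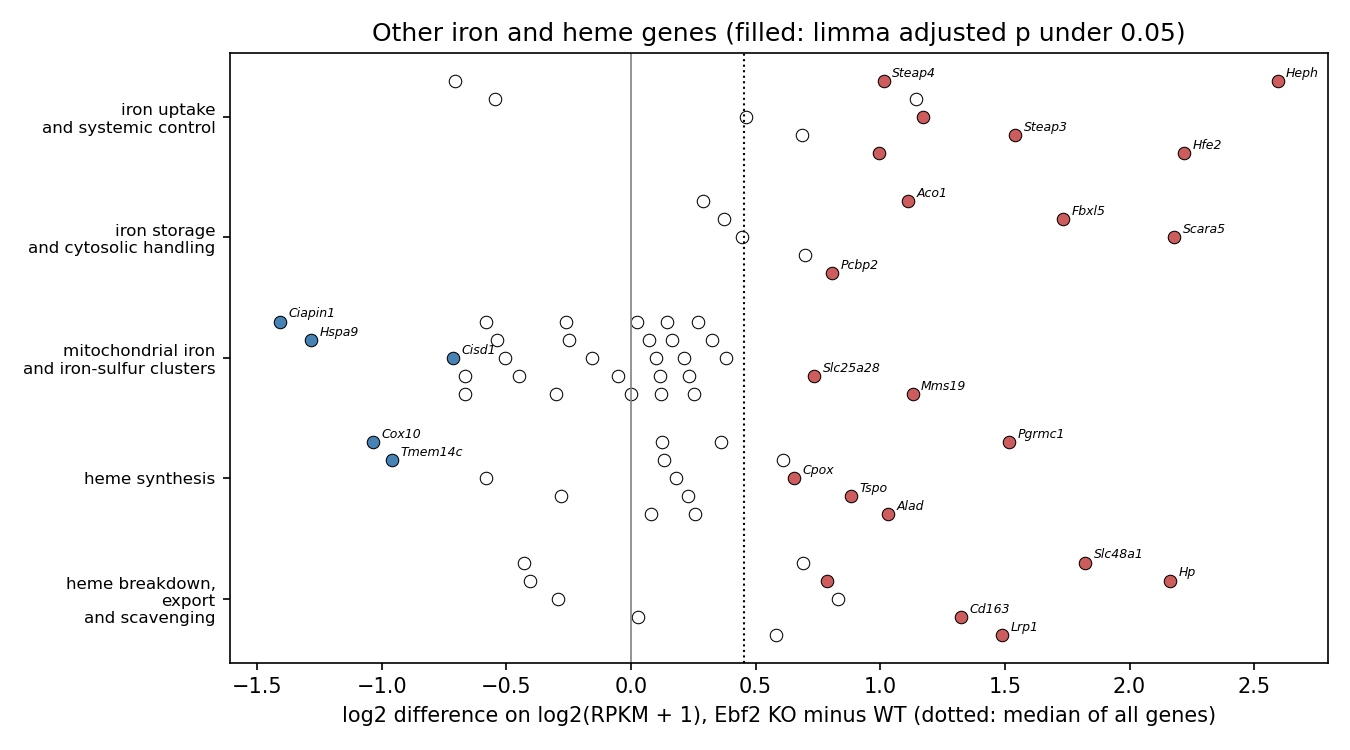
Log2 difference of Ebf2 KO minus WT on log2(RPKM + 1) for the 77 other iron and heme genes, 1 point per gene, grouped by list, with the vertical place within a list without meaning. Filled points passed the threshold (red higher, blue lower), the dotted line is the median of all genes at 0.45, and the 30 genes of mitochondrial iron and iron-sulfur clusters lie around a median of 0.013.

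The promoters of Tfrc, Fth1, Ftl1, Alas1 and Cp were searched over the 250 bases before each RefSeq start, on both strands. The EBF palindrome (TCCC and GGGA with 2 bases of any kind between) was in 0 of these 5 genes and in 0.779% of 32851 promoters, and TGACNNNGC, the core of the antioxidant response element, was in 0 of 5 and in 10.2%. ACGTG, the core of the hypoxia response element, was in 1 of 5 and in 16.6%, and CANNTG, the E-box, was in 4 of 5 and in 66.2%. A gene was counted with a match at any of its starts, whereas the shares are per promoter, so they are unlike measures. An ACGTG preceded by C is also an E-box. The ACGTG match lay in Tfrc, from base -228 to base -224 relative to the second of its starts, and is shown with its core in capitals (GRCm38, + strand).
Tfrc, chr16:32608884-32608908: cggtaggtgtACGTGcggaaggaag
A match is a description of the letters and not a shown binding site.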

How the data were processed

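Polyadenylated RNA of brown adipose tissue was sequenced from 2 WT and 2 Ebf2 KO samples on Illumina TruSeq libraries, per the labels' protocols. The submitters' processing notes name STAR, edgeR and mm9. The sources used here do not give versions, counting tool, annotation or strand setting, so reads of overlapping genes cannot be told apart. The authors deposited RPKM per library, mean RPKM per genotype, and a log2 fold change, average log2 CPM, p-value and FDR per gene, per the file headers. Library totals came from 158 microRNA genes of known length. Gene lengths were then fitted: for each of the 12165 genes the shortest length giving whole reads in every library, within 0.0001 reads, was kept. Whole reads are therefore no check of the totals, and read counts are too low where the true length is a multiple of the fitted one.

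Log2(RPKM + 1) of all genes was fitted with limma 3.58.1 (R 4.3.3, variance trend, genotype as the only term), with Benjamini-Hochberg adjustment over 12165 genes and a threshold of 0.05. The alternatives were median centring, a pseudocount of 0.1, a minimum mean of 5 RPKM, no variance trend, a replicate block, leaving out each library, and the authors' values. The members and gene lists were chosen with earlier results of these data known. Named genes were the members and, per list and direction, up to 4 genes past the threshold with the smallest p, heme synthesis enzymes, and Ebf2. A gene that the rule would also name is not reported here. Ireb2, Iscu, Cox15, Hmox2, Blvra, Hpx, Nfe2l2, Bach1, Slc39a14, Bmp6, Alas2, Alb and Xist were named after their values were seen. With 2 libraries per genotype, p-values measure only the spread between these samples. With a library left out, 1 remains in its genotype, so log2 differences are given for those fits, without p-values or numbers of calls. Marker and pathway genes that were not measured are not analysed here. Coordinates are of GRCm38 and were not combined with the mm9 files. Sequences are from RefSeq (promoters, GRCm38.p6) and GENCODE M21, and Trf, Slc11a2, Slc40a1, Fech and Hmox1 have no entry in the promoter table.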

Additional observations from a re-analysis of the deposited data

How the results depend on the processing

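Numbers of calls moved with the setting, and the authors' values differ in test as well as in scaling. Over all genes, 1024 were higher and 1253 lower after median centring, and 1325 and 1277 in the authors' deposited table, against 2971 and 431 on RPKM. For the 77 other iron and heme genes these were 11 and 15, and 11 and 21, against 21 and 5. A minimum mean of 5 RPKM left 1717 higher genes, since fewer genes were tested. Leaving out 1 library gave between 810 and 4477 higher and between 166 and 561 lower genes, and between 10 and 23 and between 1 and 8 in the 77. Of the 23 named genes with a call, centring lost 8, the authors' values 8, and a pseudocount of 0.1 and no variance trend 2 each. Some of these calls were also lost as single libraries were left out. The direction turned for Fech after centring (-0.24) and in the authors' deposited table (-0.35), for Fth1 in that table (-0.015), and for Uros (-0.39 and -0.49), Urod (-0.44 and -0.57) and Ppox (-0.16 and -0.24) under the same settings. Uros ran from -0.033 to 0.30 as each library was left out. The cause was not tested. The other 8 members kept their direction under every alternative run. Deviations of same-numbered libraries correlated at 0.348 across genes, but only a number links them. With the replicate block, 6325 genes were higher and 746 lower, and 29 and 13 of the 77. A member had between 928 and 388411 reads in a library, and 2 libraries per genotype limit the precision of every difference.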
